A study of Mus musculus with 8 samples.

Results

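Matrix metalloproteinases, their tissue inhibitors and a group of secreted matrix proteins were followed across all 8 arrays. The 10 genes were the metalloproteinase genes Mmp9, Mmp12, Mmp13, Mmp14 and Mmp19, the inhibitor genes Timp1 and Timp2, and the matrix protein genes Thbs1, Fn1 and Spp1. They were found by their gene symbol in the annotation of the array, and 9 of 10 had a probe set with that symbol alone, with 1 probe set each. No probe set carried the symbol of Spp1, the osteopontin gene, alone, so Spp1 is not analysed here. Probe sets with several symbols were not used for any of the 10 genes. All 9 genes found were bright enough to be tested, among 12668 probe sets tested in all.

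The cells were female wild-type C57BL/6 bone marrow-derived dendritic cells of 4 experiments, which the titles call BC, D2, E and I. Bone marrow had been grown for 7 days at 21% oxygen in GM-CSF (20 ng/ml), and the CD11c-positive cells were taken with magnetic beads to a purity of at least 98%. The 4 SCF cultures were kept in GM-CSF at 2% oxygen, or about 14 mmHg, for 2 days and received stem cell factor (SCF), which binds the receptor tyrosine kinase Kit, at 100 ng/ml for 6 hours. The 4 medium cultures had the same 2 days at 2% oxygen and were left without SCF for those hours, so every culture was hypoxic and none of these arrays shows the effect of oxygen. Both cultures of an experiment came from 1 cell preparation, which pairs the arrays.

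Metalloproteinases are zinc enzymes made as inactive proenzymes that, once activated, cut collagens, elastin, gelatins and many soluble or membrane proteins. Tissue inhibitors of metalloproteinases (Timps) block them by binding the active site. Dendritic cells and macrophages use these enzymes to pass basement membranes and tissue matrix, while fibronectin, thrombospondin and osteopontin serve as ligands of integrins and other surface receptors. SCF drives MAP kinase signalling through Kit, and AP-1, a transcription factor downstream of that cascade, acts on several metalloproteinase promoters.

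The surface marker used for the purification was present, since Itgax, the gene of CD11c, had a log2 intensity of 10.02 ± 0.23 with SCF and 10.08 ± 0.12 in medium (SD, n = 4 each). Of 10 dendritic cell markers 9 were named on the arrays, and all 9 lay above the intensity limit for testing, a log2 mean of 4.05 over all arrays. Macrophage markers lay above it too, in 9 of 10 named genes, with Csf1r, Cd68 and Adgre1 among them. Of 12 neutrophil markers only Mmp8, Cxcr2 and Ly6g did, and the granule genes Mpo, Elane and Ltf did not. Of 11 fibroblast and stroma markers 3 did, with mean log2 intensities of 5.53 for Acta2, 4.59 for Thy1 and 4.16 for Col3a1, while the defining genes Col1a1, Col1a2, Pdgfra and Dcn did not. Of 4 named B cell markers Pax5 did at 4.34, of 4 named T and NK cell markers none did, and of 6 endothelial markers Vwf and Cdh5 did at 5.87 and 5.24. The files hold no detection call, so a level below the limit is dim and not known to be background. Fewer cells of a type and less RNA per cell cannot be told apart on these arrays.

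No matrix gene differed between SCF and medium after adjustment over all probe sets. Limma, with experiment as a block, called 0 of 9 matrix genes against 0% of the 12668 probe sets tested (adjusted p from 0.945 to 0.989 for the 9 genes). At an unadjusted p under 0.05 the fit held 2 of the 9, Mmp9 and Thbs1, against 4.21% of all probe sets. The 95% interval lay inside a 1.5-fold change either way for 9 of 9 matrix genes and for 99.7% of all probe sets. Of the 9 genes 7 had a mean difference below 0, against 49.5% of all probe sets. Mmp9, Mmp13 and Thbs1 were below 0 in 4 of 4 experiments, against 6.44% of all probe sets, although with the array medians equalized Mmp13 was so in fewer. The median log2 difference of the 9 was −0.07, beside 0.00077 over all probe sets, and it was −0.016 without BC and −0.13 without D2.

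**Figure D1:**
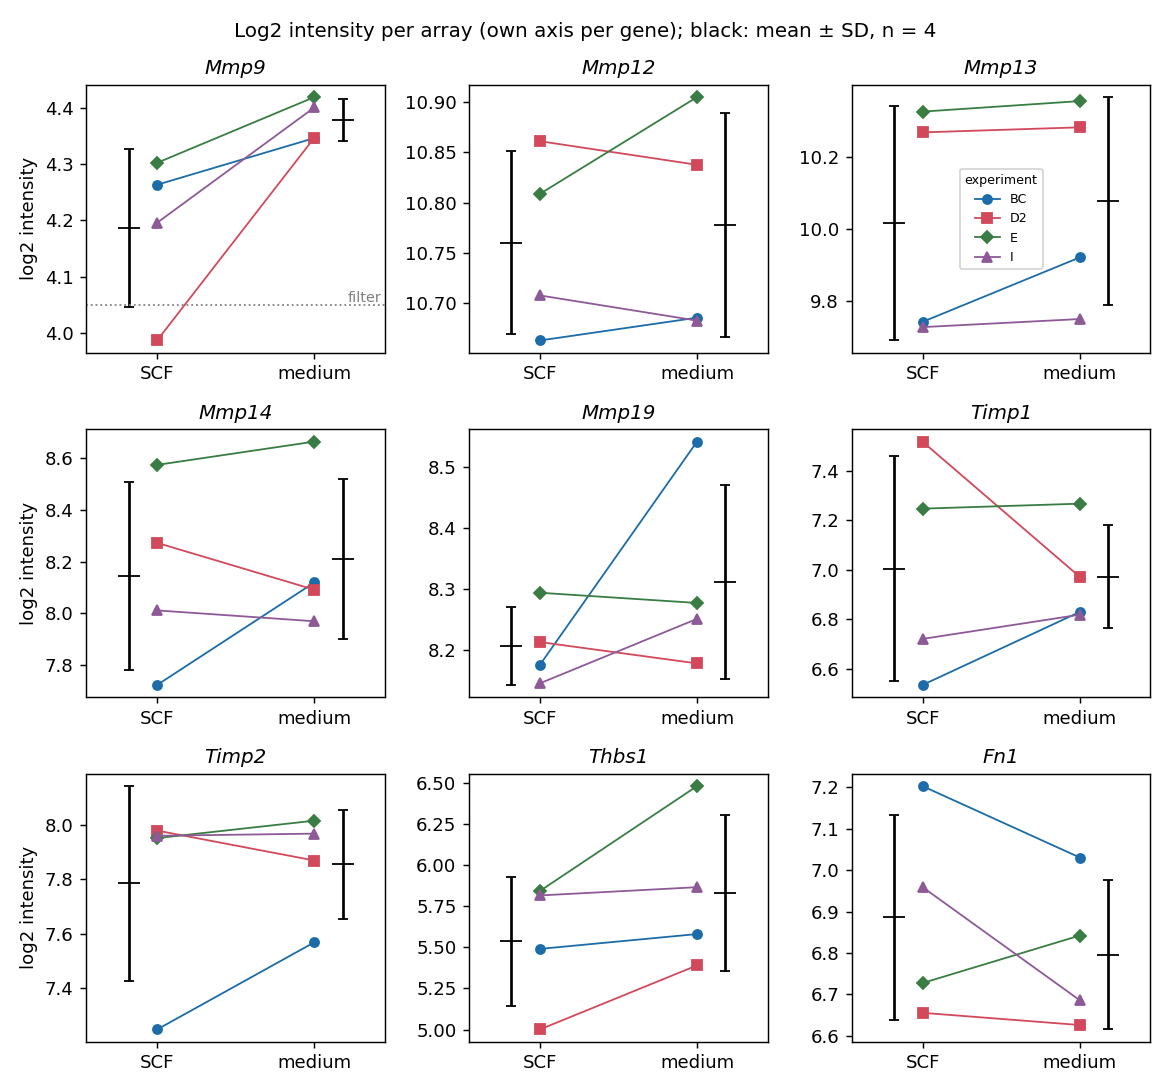
Log2 intensity of the 9 matrix genes on each array, SCF on the left and medium on the right of each panel, with a line joining the arrays of 1 experiment and black bars for the mean ± SD (n = 4). Each gene has its own axis. Lines of 1 experiment mostly stay at their own height, and Mmp9 is the gene whose 4 SCF arrays lie below all 4 medium arrays, with a dotted line at the intensity limit of 4.05.

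Mmp9 encodes gelatinase B, which cuts denatured collagen and basement membrane collagen and is stored or secreted by many myeloid cells. Its intensity was 19.2 (BC), 15.8 (D2), 19.7 (E) and 18.3 (I) with SCF, against 20.3, 20.3, 21.4 and 21.1 in medium in the same order. Every SCF array lay below every medium array, which 0.971% of all probe sets also showed in either direction. The log2 difference was −0.19 (SE 0.06, 95% interval −0.34 to −0.05), a fold of 0.876, and did not pass (limma adjusted p = 0.945). Mmp9 was dim, since its mean log2 intensity was 4.19 ± 0.14 with SCF and 4.38 ± 0.04 in medium, and its SCF array of D2 lay under the limit of 4.05 at 3.99. With 16 added to every intensity before the logarithm the difference was −0.10.

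Mmp12 and Mmp13, the macrophage elastase and the main interstitial collagenase of rodents, were bright and stayed close to their own experiment's level. For Mmp12 the intensities were 1622 (BC), 1860 (D2), 1794 (E) and 1673 (I) with SCF, against 1647, 1830, 1917 and 1644 in medium. The 2 groups overlapped, with 2 experiments on each side of 0, and the log2 difference was −0.02 (SE 0.05, limma adjusted p = 0.985). Mmp13 had 856 (BC), 1233 (D2), 1283 (E) and 848 (I) with SCF, against 969, 1245, 1309 and 861 in medium. Its SCF array was the lower of the pair in 4 of 4 experiments, yet the groups overlapped, with D2 and E far above BC and I in both. The log2 difference of Mmp13 was −0.06 (SE 0.05, 95% interval −0.19 to 0.07, limma adjusted p = 0.945), and it was −0.02 without BC.

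Mmp13 and Mmp12 come first in the order of the 10 metalloproteinase genes that the RefSeq table places on chromosome 9 (assembly GRCm38.p6, used here for order and names). All 10 were named on the arrays, but only 3 lay above the intensity limit, and these were Mmp13, Mmp12 and Mmp8, the neutrophil collagenase gene. Mmp1a, Mmp1b, Mmp3, Mmp7, Mmp10, Mmp20 and Mmp27 had mean log2 intensities between 2.61 and 3.85. Mmp8 had a log2 intensity of 9.90 ± 0.18 with SCF and 9.90 ± 0.17 in medium (SD, n = 4), and its log2 difference was −0.0084 (SE 0.05, limma adjusted p = 0.996). The neutrophil granule markers Mpo, Elane, Ltf, Camp and Ngp were under the limit beside it, with means between 2.93 and 3.91.

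The promoters of Mmp12 and Mmp13 are shown because both hold the AP-1 motif TGANTCA close to a start site, given in capitals. The windows run from 250 bases before to 50 bases after a RefSeq start, on the plus strand of GRCm38.p6. The motif begins 44 bases before the start in Mmp12 (chr9:7347124-7347423) and 35 bases before it in Mmp13 (chr9:7272264-7272563).
Mmp12: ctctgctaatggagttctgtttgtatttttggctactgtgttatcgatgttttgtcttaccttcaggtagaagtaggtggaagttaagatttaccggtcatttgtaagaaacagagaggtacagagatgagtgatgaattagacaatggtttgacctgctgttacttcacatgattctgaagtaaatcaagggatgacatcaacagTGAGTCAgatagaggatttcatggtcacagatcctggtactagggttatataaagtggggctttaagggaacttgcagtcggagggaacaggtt
Mmp13: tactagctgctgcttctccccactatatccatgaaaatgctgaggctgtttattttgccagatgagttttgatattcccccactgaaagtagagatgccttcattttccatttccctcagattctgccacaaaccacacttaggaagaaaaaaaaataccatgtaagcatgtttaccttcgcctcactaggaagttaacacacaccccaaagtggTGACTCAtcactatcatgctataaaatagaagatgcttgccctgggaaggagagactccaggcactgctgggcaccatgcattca

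TGANTCA, which reads the same on both strands, was found in 7.81% of 32851 RefSeq windows of 300 bases. Of the 10 matrix genes 6 had windows in that table, 8 windows in all, and 2 windows held the motif. The other Mmp12 window and those of Mmp14, Timp1, Timp2 and Spp1 did not hold these letters. The core of the hypoxia response element, ACGTG on either strand, was in the windows of Mmp14 and Timp1 and in 19.6% of all windows. A match in these letters is a description of the window, and no binding was measured here.

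Mmp14 encodes the membrane-anchored metalloproteinase that cuts collagen at the cell surface and activates the gelatinase proenzyme encoded by Mmp2. Its intensity was 211 (BC), 309 (D2), 381 (E) and 258 (I) with SCF, against 278, 273, 405 and 251 in medium. The pairs disagreed in direction, with BC and E lower and D2 and I higher with SCF, and the groups overlapped. The log2 difference was −0.07 (SE 0.09, 95% interval −0.28 to 0.15, limma adjusted p = 0.960), and it was 0.04 without BC. Mmp2 itself, chosen after its values were seen, was under the intensity limit at 4.02 ± 0.15 with SCF and 3.99 ± 0.12 in medium (log2, SD, n = 4).

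Mmp19 encodes a secreted metalloproteinase that cuts basement membrane proteins. It had intensities of 289 (BC), 297 (D2), 314 (E) and 283 (I) with SCF, against 373, 290, 310 and 305 in medium. The medium array of BC stood above the other 7 arrays, which lay within 283 to 314. The log2 difference was −0.11 (SE 0.08, limma adjusted p = 0.945) and −0.02 without BC.

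Timp1 encodes a secreted inhibitor that also binds the Mmp9 proenzyme. Its intensities were 92.8 (BC), 183 (D2), 152 (E) and 106 (I) with SCF, against 114, 126, 154 and 113 in medium. D2 was the lone experiment in which SCF stood higher, by 0.55 on the log2 scale, while BC was lower by 0.29. The mean log2 difference was 0.03 (SE 0.12, 95% interval −0.26 to 0.32, limma adjusted p = 0.989), and it was −0.14 without D2 and 0.14 without BC. This was the widest interval among the 9 genes.

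Timp2, which encodes the inhibitor that also takes part in the activation of the Mmp2 proenzyme by Mmp14, was low in experiment BC. It had 152 (BC), 253 (D2), 248 (E) and 249 (I) with SCF, against 190, 234, 259 and 251 in medium. Both BC arrays lay below the 6 others, and without BC the SCF arrays spanned 248 to 253. The log2 difference was −0.07 (SE 0.08, limma adjusted p = 0.953), or 0.01 without BC.

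The difference of Timp1 less that of Mmp9 was taken within each experiment, as a comparison of changes and not of levels. It was −0.21 (BC), 0.91 (D2), 0.10 (E) and 0.11 (I) on the log2 scale, with a mean of 0.22 ± 0.48 (SD, n = 4). The two-sided exact sign-flip permutation gave p = 0.625, and with 4 pairs this test cannot go below 1 in 8. The value of D2 stood far above those of the other experiments, which lay between −0.21 and 0.11. Mmp9 differed by −0.36 in D2, where its SCF array lay under the intensity limit. The mean was −0.0025 without D2, 0.37 without BC and 0.14 with 16 added to every intensity before the logarithm.

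Thbs1 encodes thrombospondin, a secreted protein that binds the receptors Cd36 and Cd47 and activates latent TGF-beta. Its intensities were 44.96 (BC), 32.01 (D2), 57.38 (E) and 56.33 (I) with SCF, against 47.86, 41.94, 89.3 and 58.32 in medium. SCF was the lower array in 4 of 4 experiments, while the groups overlapped. The pairs were uneven, with log2 differences of −0.64 in E and −0.39 in D2 but −0.09 in BC and −0.05 in I. The mean was −0.29 (SE 0.10, 95% interval −0.53 to −0.06), a fold of 0.817, and did not pass (limma adjusted p = 0.945). Without E, whose medium array was the highest of the 8, the log2 difference was −0.18. Thbs1 had the largest fitted difference of the 9 genes in either direction.

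Fn1 encodes fibronectin, a matrix glycoprotein bound by integrins. It had intensities of 147 (BC), 101 (D2), 106 (E) and 124 (I) with SCF, against 131, 98.8, 115 and 103 in medium. It stood higher with SCF in 3 of 4 experiments and lower in E, with overlapping groups. The log2 difference was 0.09 (SE 0.07, 95% interval −0.08 to 0.26, limma adjusted p = 0.945), or 0.03 without I and 0.16 without E.

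**Figure D2:**
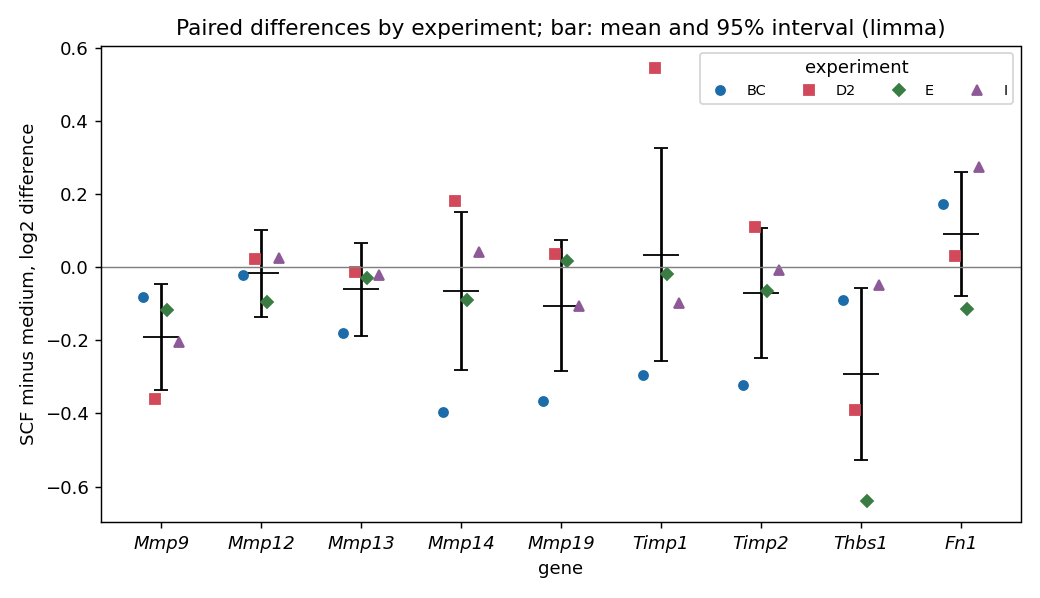
SCF minus medium log2 difference of each matrix gene in each experiment (coloured points), with the mean and its 95% interval from limma (black). The intervals of Mmp9 and Thbs1 lie below 0 before adjustment, the points of BC lie below 0 for 8 of 9 genes, and Timp1 spans −0.29 in BC to 0.55 in D2.

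The paired differences of these genes were not alike in the 4 experiments. Each difference comes from 1 SCF and 1 medium array, so an unequal response cannot be told from variation between arrays. In BC 8 of the 9 genes were lower with SCF, with a median log2 difference of −0.18, while in D2 3 were lower and the median was 0.03. In E 8 of 9 were lower with a median of −0.09, and in I 6 of 9 with a median of −0.02. Over all tested probe sets the share below 0 was 52.1% (BC), 48.7% (D2), 49.8% (E) and 48.3% (I). Markers of several cell types differed by experiment too, and none of them passed the test for SCF. The 9 tested macrophage markers had a mean log2 difference of −0.28 (BC), 0.08 (D2), −0.03 (E) and −0.03 (I). The 4 tested osteoclast markers had −0.19 (BC), 0.11 (D2), −0.08 (E) and −0.10 (I), and the 5 monocyte markers, of which Fn1 is 1, had −0.22 (BC), 0.09 (D2), −0.14 (E) and 0.06 (I). In these 3 lists BC was the lowest experiment and D2 the highest, as in the medians of the matrix genes. The 9 dendritic cell markers were highest in BC and lowest in D2, with 0.11 (BC), −0.03 (D2), 0.03 (E) and 0.05 (I), as did the 3 tested fibroblast markers, with 0.14 (BC), −0.12 (D2), 0.03 (E) and 0.08 (I). Over the 4 experiments the mean lay between −0.12 and 0.06 for the 3 tested mast cell markers and between −0.11 and 0.04 for the 3 tested neutrophil markers. Of the 9 tested macrophage markers 8 had a mean over experiments below 0, against 49.5% of all probe sets. So had 4 of 4 osteoclast, 3 of 5 monocyte and 1 of 9 dendritic cell markers. Mertk, a macrophage marker, was the lone gene of these 4 lists at an unadjusted p under 0.05, against 4.21% of all probe sets. Below 0 as well were 3 of 3 mast cell, 2 of 3 neutrophil and 1 of 3 fibroblast markers. The summed intensity of the 10 macrophage markers on the arrays lay between 2032 and 2943 with SCF and between 2265 and 2939 in medium, and that of the 6 osteoclast markers between 1052 and 1808 with SCF and between 1172 and 1602 in medium. The part of these markers in the differences of the matrix genes was not tested.

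The levels of most matrix genes differed more between experiments than those of a typical probe set. The median range of the 4 experiment means was 0.57 on the log2 scale for the matrix genes and 0.20 over all probe sets. Experiment, which has 3 degrees of freedom to the 1 of SCF, took a median of 80.2% of the sum of squares of a matrix gene, against 61.8% over all probe sets. Mmp9, a dim gene, was the lone matrix gene with more of its sum of squares between SCF and medium (53.5%) than between experiments (29.6%). The share between SCF and medium over all probe sets is not given here, so how common this was is not known. An F test of the 4 experiments in the same limma fit called 2 of 9 matrix genes, against 3.35% of all probe sets. The probe sets compared were not matched to the matrix genes for brightness. Above a stricter limit, a log2 mean of 6.21, the F test called 1396 of 6334 probe sets and 5 of 7 matrix genes.

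The genes called in the main fit were Mmp13 and Thbs1. Mmp13 had experiment means of 9.83 (BC), 10.27 (D2), 10.34 (E) and 9.74 (I) (log2, limma adjusted p = 0.0202), a range of 1.52-fold. Its call was lost without D2 (adjusted p = 0.0515), without E (0.0807) and without I (0.0604). Thbs1 had means of 5.54 (BC), 5.20 (D2), 6.16 (E) and 5.84 (I) (limma adjusted p = 0.0426), a range of 1.95-fold. Its call was lost without BC (adjusted p = 0.0578), without D2 (0.174), without E (0.0964) and with no intensity limit (0.0642). Timp2 (adjusted p = 0.0571) and Mmp14 (0.0683) missed the threshold. Mmp14 ranged from 7.92 in BC to 8.62 in E, and Timp2 from 7.41 in BC to 7.98 in E. After Mmp9, Mmp19 had the least part of its sum of squares between experiments, at 33.3%. The labels give no array or hybridisation date, so the cell preparation and the handling of its arrays cannot be told apart.

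**Figure D3:**
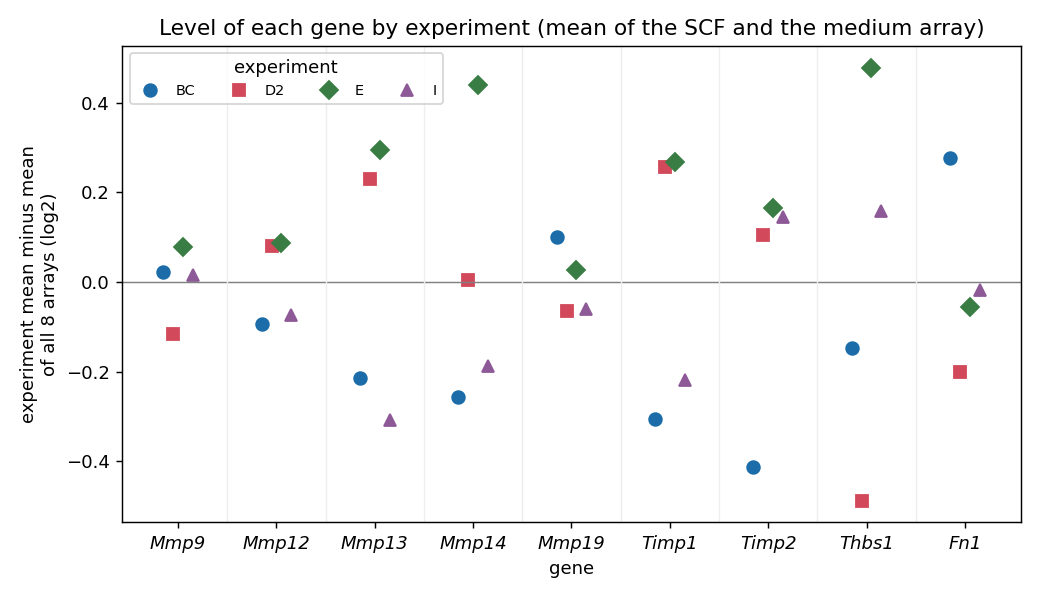
Mean log2 intensity of each matrix gene in each experiment (mean of its SCF and its medium array), less the mean of all 8 arrays. Mmp12, Mmp13 and Timp1 are high in D2 and E and low in BC and I, Mmp14 and Thbs1 are highest in E, and Fn1 is highest in BC.

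Several matrix genes shared an order of experiments. Over the 8 arrays Pearson's r was 0.93 between Mmp12 and Mmp13, 0.86 between Timp1 and each of them, and 0.83 between Mmp13 and Mmp14. Fn1 ran the other way, with r of −0.81 to Timp2 and −0.68 to Timp1, and Thbs1 correlated at 0.71 with Mmp9. These are descriptions over 8 arrays that come in 4 pairs, so an experiment counts 2 times in each. The mean of the tested macrophage markers was 7.12 (BC), 7.26 (D2), 7.61 (E) and 7.21 (I). That of the monocyte markers was 5.92 (BC), 6.26 (D2), 6.42 (E) and 6.15 (I). Both were highest in E, as were 7 of the 9 matrix genes and the mean of the 2 tested endothelial markers. The share of all probe sets highest in E was not counted. Dendritic cell markers were lowest in E, at 8.24 (BC), 8.17 (D2), 8.15 (E) and 8.25 (I). Osteoclast markers were highest in D2 at 7.25, with 7.22 in E, and neutrophil markers in D2 at 6.39, with 6.37 in E. The tested fibroblast markers were highest in BC. The F test, which called 3.35% of all probe sets, called 3 of 9 macrophage markers (Fcgr1, C1qb and Cd14). It called 3 of 5 monocyte markers (Ly6c2, Ccr2 and F13a1), 1 of 4 osteoclast markers (Ocstamp) and 0 of 9 dendritic cell markers. The 3 tested mast cell markers had a mean of 5.75 (BC), 5.15 (D2), 5.39 (E) and 5.57 (I), with the highest and lowest experiments of Fn1. The F test called 2 of these 3, Kit (limma adjusted p = 0.0412), the SCF receptor gene, and Cpa3 (0.0333), while the mast cell genes Tpsb2, Cma1, Mcpt4, Fcer1a and Ms4a2 were under the intensity limit. The part of these lists in the levels of the matrix genes was not tested.

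By the same measure over 11351 tested genes, the genes most like Mmp13 were Pdlim1 (r = 0.996) and Tmem67 (0.991). Those most like Mmp12 were Armcx3 and Cep57, at 0.988 and 0.987, and those most like Mmp14 were Gm20559 and Lgals9, at 0.990 and 0.987. For Thbs1 they were Daxx and Ube2o, at 0.978 and 0.946, and for Mmp9 Aqp7 and Zfp639, at 0.936 and 0.909. Mmp19 was most like Gsc and Utp25 (0.958 and 0.956), Timp1 most like Uqcc2 and Ankrd55 (0.978 and 0.962), Timp2 most like Rbp4 and Gusb (0.977 and 0.963), and Fn1 most like Thy1 and Arhgap28 (0.977 and 0.972). The highest of so many coefficients over 8 arrays is large whatever the genes, so these names describe the arrays alone.

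Other metalloproteinase, inhibitor and protease genes gave 0 calls for SCF in limma. Of 18 other metalloproteinase genes 17 were named and 5 tested, 4 with a mean above 0, and their median log2 difference was 0.07. Mmp23 was at 0.09 (SE 0.06), Mmp25, a membrane-anchored leukocyte enzyme gene, at 0.07 (SE 0.05) and Mmp11 at 0.11 (SE 0.10), while the remaining tested members were Mmp8 and Mmp17. Of 5 tested inhibitor genes 2 were above 0, with the cathepsin inhibitor gene Cstb at 0.05 (SE 0.05), the membrane inhibitor gene Reck at −0.04 (SE 0.07) and Serpinb2, a plasminogen activator inhibitor gene, at −0.03 (SE 0.07). Mmp25 and Cstb were above 0 in 4 of 4 experiments, where 1630 of 12668 probe sets had the same direction, up or down, in 4 of 4. The inhibitor genes Timp3 and Timp4 were under the intensity limit.

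Of 15 tested matrix-degrading proteases and activators 12 were below 0, with a median of −0.04. The cathepsin genes Ctsk and Ctsl, lysosomal cysteine proteases that cut collagen or other matrix proteins, were at −0.14 (SE 0.07) and −0.13 (SE 0.07). Ctsl differed by −0.36 in BC and between −0.10 and −0.02 elsewhere, so it was below 0 in 4 of 4 experiments. The metalloprotease gene Adam9 and the cathepsin gene Ctss, named after their values were seen, were below 0 in 4 of 4 as well. Of all probe sets 6.44% were so, and which genes of this list were so changed with the scaling of the arrays. The metalloprotease gene Adam19 was at 0.10 (SE 0.05) and above 0 in 4 of 4 experiments, though not with the array medians equalized. None of the 15 reached an unadjusted p under 0.05.

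Of 32 other matrix and matricellular genes 31 were named and 13 tested, 7 above and 6 below 0, with a median log2 difference of 0.0024, or −0.02 with the array medians equalized. The chondroitin sulfate proteoglycan gene Vcan was at 0.10 (SE 0.05) and above 0 in 4 of 4 experiments, though not with the array medians equalized, and the proteoglycan gene Bgn at 0.11 (SE 0.10). The tenascin gene Tnc, a ligand of integrins, was at −0.14 (SE 0.08), with −0.35 in BC but 0.11 in D2. Of the 20 receptor genes for matrix proteins 18 were tested, 12 of them below 0, with a median of −0.02. Itgb3, the beta chain of the vitronectin receptor, was at −0.22 (SE 0.08) and Cd36, the thrombospondin and lipid receptor gene, at −0.14 (SE 0.05), both below 0 in 4 of 4 experiments and neither past the threshold (limma adjusted p = 0.945 for each). The integrin gene Itgam was at −0.11 (SE 0.07). Itgb3 and Cd36 were the 2 receptor genes at an unadjusted p under 0.05, of 18 tested, against 4.21% of all probe sets. Of all probe sets 6.44% were below 0 in 4 of 4 experiments.

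**Figure D4:**
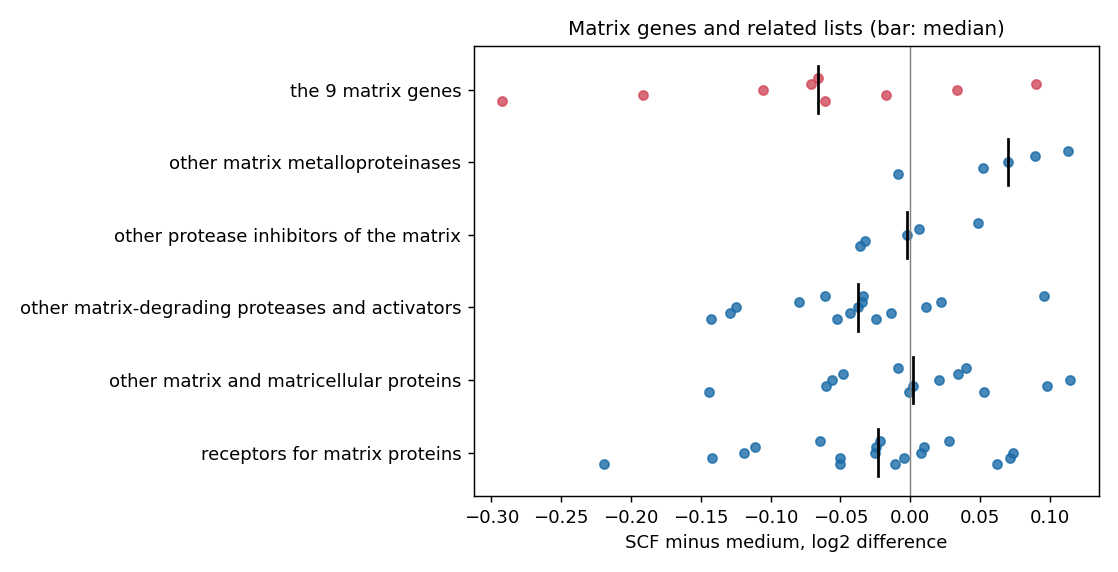
SCF minus medium log2 difference of the 9 matrix genes (top) and of the tested genes of the 5 related lists. Each point is 1 gene and each vertical bar the median of its list, which was −0.07 for the matrix genes and lay between −0.04 and 0.07 for the related lists.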

How the data were processed

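Total RNA of 8 cultures was biotin-labelled and read on 1 whole-transcript Affymetrix array each, per the labels' protocols. The deposited values are 1 intensity for each probe set on each array, and RMA is named in the submitters' processing notes, though the sources used here give neither its version nor its filters. The intensities are on a linear scale, as their values show, with array medians between 13.3 and 13.9, so log2 was taken with no pseudocount. Whether any centring was applied stays unknown.

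Of 41345 probe sets, 23521 had 1 gene symbol in the platform annotation, 1814 several and 16010 none. Probe sets with a symbol were tested where the average of their 8 log2 values was at least 4.05, the median of all such averages. SCF was compared with medium by limma 3.58.1 (R 4.3.3) in a two-sided test that took experiment as a fixed block, adjusted by Benjamini-Hochberg over 12668 probe sets at a threshold of 0.05. An F test of the experiment terms came from the same fit. The fit was tested on simulated data. The design text gives the pairing, and arrays of 1 experiment correlated at 0.36 to 0.46 after removal of group means. Precision is limited by having 4 arrays in a group.

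The matrix genes and all lists were chosen with earlier results of these data known. Named genes were the members, Mmp8, Itgax, up to 3 genes with the smallest p in each of 5 related lists, and the 2 genes most correlated with each member. Markers are named from fixed lists. Promoter windows are RefSeq's (GRCm38.p6). Alternatives changed the block, filter, scaling, variance model, offset, probe set choice and experiments used.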

Additional observations from a re-analysis of the deposited data

Results flagged for a closer look

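The SCF array of experiment BC lay far below the other SCF arrays for Timp2, at a log2 intensity of 7.25 against 7.95 to 7.98. The medium array of BC was the lowest of its group too, at 7.57. This was 1 of 18 groups of 4 arrays looked at, and chance sets apart about 1 in 20 such groups.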

How the results depend on the processing

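SCF against medium gave 0 calls, over all probe sets and among the matrix genes, in the main fit and under each of 13 alternatives, including the fit with no replicate block (adjusted p = 1.00 for Mmp9, whose −0.19 is fixed there by the balanced pairs). The settings of the block, filter, variance and probe sets, 6 of the 13, cannot change the log2 difference itself. Of 63 values of single matrix genes under the other 7 alternatives, 59 had the main direction. The 4 that turned were Mmp14 (0.044) and Timp2 (0.013) without BC, Timp1 (−0.14) without D2 and Mmp12 (0.0086) without E. Leaving out 1 experiment gave a range of −0.15 to 0.044 for Mmp14, −0.13 to 0.013 for Timp2, −0.14 to 0.14 for Timp1 and −0.032 to 0.0086 for Mmp12. Over the alternatives Mmp9 lay between −0.23 and −0.10 and Thbs1 between −0.37 and −0.18, each with adjusted p from 0.836 to 1.00. Equalizing the array medians moved the median of all probe sets to −0.02, and 7 of 9 matrix genes were then below 0. Leaving out 1 experiment gave −0.13 to −0.016 for the median of the 9 genes and −0.0025 to 0.37 for Timp1 less Mmp9. The stricter intensity limit left Mmp9 and Thbs1 untested.

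Calls between experiments depended on the setting. The main fit called 424 of 12668 probe sets and 2 of 9 matrix genes. There were 194 of 25335 and 1 of 9 with no intensity limit, and 1396 of 6334 and 5 of 7 with a stricter one. With a variance trend there were 1527 of 12668 and 7 of 9, and with 16 added to each intensity 1210 of 12668 and 5 of 9. The share over all probe sets thus changed with the setting too. Leaving out 1 experiment gave 40 to 176 of 12668 probe sets and 0 to 1 of 9 matrix genes, with fewer arrays in each such fit. The cause of the other changes was not tested. Signal over background is unknown, so how far dimness limits Mmp9 was not tested.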

Other observations

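In the related lists, the limma F test between the 4 experiments called 1 of 5 tested metalloproteinase genes and 1 of 5 inhibitor genes. It called 1 of 15 proteases and activators, 0 of 13 other matrix and matricellular genes and 0 of 18 receptor genes. The share over all probe sets was 3.35%. The 3 genes called were chosen for this after their values were seen. Mmp23, a metalloproteinase gene, had mean log2 intensities of 7.06 (BC), 6.73 (D2), 6.40 (E) and 6.73 (I) (adjusted p = 0.0350), so its highest and lowest experiments were the lowest and highest of Mmp14. Hpse, the heparanase gene, whose enzyme cuts heparan sulfate chains of the matrix, was lowest in BC and highest in E, as was Mmp14. Its means were 6.78 (BC), 7.24 (D2), 7.49 (E) and 7.29 (I) (adjusted p = 0.0479), with D2 and I in the opposite order to Mmp14. Serpinb2 had 5.19 (BC), 5.20 (D2), 5.54 (E) and 4.77 (I) (adjusted p = 0.0376). The osteoclast marker Ocstamp, a gene for cell fusion in the multinucleated cells that degrade bone matrix, differed as well. It had 9.75 (BC), 9.85 (D2), 9.57 (E) and 9.03 (I) (limma F test adjusted p = 0.0242). Each value is the mean of 1 SCF and 1 medium array.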
